A study of Homo sapiens with 9 samples.

Results

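HK-2 is an immortalised human cell line from the proximal tubule of the kidney, and 3 RNA-seq libraries from HK-2 cells given lactoferrin and then fine airborne particulate matter (PM2.5) were compared with 3 libraries from cells given PM2.5 alone. The comparison covered 6 of the 9 libraries of the study and the 14454 genes, of 58884 listed, that reached 0.5 FPKM (fragments scaled to gene length and to the size of the library) in at least 3 of the 9. The PM2.5 group was in PM2.5 for 24 h. The lactoferrin group received lactoferrin for 6 h and after that PM2.5 for 18 h, so the totals matched at 24 h and the times in PM2.5 did not. The other 3 libraries were controls, labelled untreated at 24 h, while the treatment protocol speaks of a control vehicle. They are used here for the levels without PM2.5 and for the shared estimate of the spread. The study's design text gives doses of 1 mg/ml for PM2.5 and 40 mg/ml for lactoferrin, units that could not be checked, and gives no PM2.5 time for cells without lactoferrin. No library had lactoferrin alone. An action of lactoferrin by itself, a changed response to PM2.5 and the shorter time in PM2.5 therefore cannot be told apart. Whether replicates were grown as separate cultures is not in the labels, and the p-values speak only of the variation among these libraries, part of which may be technical.

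Lactoferrin is an iron-binding glycoprotein of milk, other secretions and neutrophil granules. It binds bacterial lipopolysaccharide, heparan sulfate proteoglycans and members of the LDL receptor family. Tubule cells that meet particles, endotoxin or cytokines activate NF-kB, a dimeric transcription factor held in the cytosol by inhibitor proteins, which then drives genes of cytokines, chemokines, adhesion molecules and acute-phase proteins. LCN2 (lipocalin 2, also called NGAL), one such gene, encodes a protein that captures bacterial siderophores and is measured as a sign of tubule injury. Damaged proteins act through HSF1, which drives HSP70, HSP90 and their co-chaperones, and oxidants and electrophiles act through NRF2, which drives HMOX1, NQO1 and glutathione genes.

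For 5 genes described below the 250 bases before the start annotated by RefSeq are shown, because the NF-kB target and heat shock lists were the gene groups that these results turn on. The sequences are from RefSeq on GRCh38.p14, written 5′ to 3′ on the strand of the gene. The gene spans given further on are those of GENCODE v29, whose starts differ for all of these but HSPA6, so the LCN2 and IL6 windows lie within those spans and the CXCL8 and CXCL5 windows overlap them. LCN2 lies at chr9:128149203-128149452 (plus), IL6 at chr7:22726950-22727199 (plus), CXCL8 at chr4:73740319-73740568 (plus), CXCL5 at chr4:73998678-73998927 (minus) and HSPA6 at chr1:161524290-161524539 (plus). Capitals mark matches to GGNNNTTCC or to the longer form GGG, any 4 bases, TCC (both NF-kB type) in the first 4 sequences and to GAANNTTC or TTCNNGAA (heat shock element type) in HSPA6, on either strand.
LCN2: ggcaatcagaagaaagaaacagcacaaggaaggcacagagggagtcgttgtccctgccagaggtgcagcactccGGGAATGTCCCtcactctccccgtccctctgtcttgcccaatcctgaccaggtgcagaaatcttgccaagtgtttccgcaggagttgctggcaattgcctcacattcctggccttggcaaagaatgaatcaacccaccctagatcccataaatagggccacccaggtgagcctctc
IL6: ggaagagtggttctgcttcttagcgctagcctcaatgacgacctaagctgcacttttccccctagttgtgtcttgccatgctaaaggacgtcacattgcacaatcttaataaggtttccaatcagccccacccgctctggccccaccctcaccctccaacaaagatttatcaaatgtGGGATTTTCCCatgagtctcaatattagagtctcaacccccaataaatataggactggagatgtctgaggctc
CXCL8: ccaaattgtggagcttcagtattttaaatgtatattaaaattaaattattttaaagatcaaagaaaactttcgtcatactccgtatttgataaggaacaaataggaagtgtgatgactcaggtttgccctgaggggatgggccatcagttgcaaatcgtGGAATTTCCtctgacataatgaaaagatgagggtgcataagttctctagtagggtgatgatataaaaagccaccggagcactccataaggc
CXCL5: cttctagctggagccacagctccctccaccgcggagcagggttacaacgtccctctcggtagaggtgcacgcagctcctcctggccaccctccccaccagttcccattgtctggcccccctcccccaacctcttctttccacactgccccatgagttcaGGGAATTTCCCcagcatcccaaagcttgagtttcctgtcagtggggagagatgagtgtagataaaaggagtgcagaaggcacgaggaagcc
HSPA6: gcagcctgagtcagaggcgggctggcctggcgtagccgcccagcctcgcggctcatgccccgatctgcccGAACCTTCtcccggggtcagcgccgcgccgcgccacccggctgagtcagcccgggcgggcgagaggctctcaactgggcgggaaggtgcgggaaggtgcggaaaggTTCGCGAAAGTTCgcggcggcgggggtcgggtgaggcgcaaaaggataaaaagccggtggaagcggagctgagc

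The NF-kB type letters begin at -176 in LCN2, -73 in IL6, -91 in CXCL8 and -91 in CXCL5, counted from the annotated start. In HSPA6 the heat shock type letters begin at -180, -74 and -69, the last 2 overlapping. Of the 30 NF-kB target genes tested, 22 had a promoter of 300 bases (250 before to 50 after the start) in the RefSeq table. GGNNNTTCC was in 15 of these 22 (68.2%), against 20.1% of 35116 promoters. The longer form was in 12 (54.5%), against 22.6%, and the 2 forms can share the same bases. Of the 31 heat shock genes tested, 28 had a promoter there. GAANNTTC was in 11 of the 28 (39.3%, against 6.77% of all promoters) and TTCNNGAA in 6 (21.4%, against 7.74%). The lists hold known NF-kB targets and heat shock genes. Their higher shares of these letters were therefore foreseeable and are no result of these data. A match describes the letters in this window only. TGANTCA (AP-1 type), TGANNNNGC (antioxidant response element type) and TTGCNNAA (C/EBP type) were in 7.71%, 41.8% and 10.5% of all promoters and in 5, 10 and 5 of the 22.

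The 6 libraries held between 15734035 and 18820429 fragments assigned to genes, and between 5.79% and 9.33% of these were mitochondrial. Lactoferrin replicate 1 stood apart. On the first principal component of the 6 libraries (40.7% of the variance) the PM2.5 libraries lay at -8.6, -16.0 and -17.1 and the lactoferrin libraries at 39.0, 9.0 and -6.3. The libraries of each group also differed along gene length. Relative to the mean of the PM2.5 libraries, the median log2 level of the genes with exons of up to 2246 bases in all was 0.17, 0.09 and -0.01 in lactoferrin replicates 1, 2 and 3. It was 0.06, -0.02 and -0.04 in PM2.5 replicates 1, 2 and 3 and 0.08, 0.02 and -0.08 in the control replicates. For genes with 6866 bases or more it was -0.16, -0.07 and -0.01 with lactoferrin, -0.03, 0.03 and 0.01 with PM2.5 alone and -0.02, 0.03 and 0.08 in control. In each group replicate 1 was thus the highest for the short genes and the lowest for the long ones. The part of these differences in the results below was not tested beyond the values given with and without lactoferrin replicate 1 and with the length trend removed. Of 29 markers of the proximal tubule 6 reached 1 FPKM, among them PAX8 and DPP4, while LRP2, CUBN and HNF4A did not, and SLC22A6, SLC5A12 and ACSM2A were at 0 in all 9 libraries. Their summed level was 162 to 169 FPKM in the PM2.5 libraries and 155 to 173 FPKM in the lactoferrin libraries. Of 21 immune cell markers 3 reached 1 FPKM (ITGAX, CSF1R and CD14), MS4A1, FCGR3A and MPO were at 0 in all 9 libraries, and the sums of 3.53 to 4.54 and 3.69 to 5.02 FPKM overlapped. In these bulk samples fewer cells expressing a gene and less of its RNA per cell cannot be told apart.

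After lactoferrin, LCN2 and the pattern recognition receptor gene CLEC4E fell to about the control level, JAG1 and RNF144B fell further below control than PM2.5 alone had brought them, and HSPA6 and PDK4 rose further above it. Of the 14454 genes 7 (0.0484%) passed an adjusted p of 0.05 (limma, Benjamini-Hochberg), 3 higher (0.0208%) and 4 lower (0.0277%), and 35 passed 0.1 (0.242%). Without adjustment 770 genes were higher (5.33%) and 996 lower (6.89%) at a p under 0.05, where 723 in all would be expected by chance. Their total of 1766 was 963 without PM2.5 replicate 3, 1021 without PM2.5 replicate 2, 1073 without lactoferrin replicate 1 and 3379 without lactoferrin replicate 3. The larger number of lower genes did not hold with the replicate block (1389 higher and 1260 lower) or with library weights (2655 and 2252). The 3 lactoferrin libraries lay above the 3 PM2.5 libraries without overlap for 1280 genes (8.86%) and below them for 1690 (11.7%), on FPKM scaled between libraries. Over all genes 51.3% of the log2 fold changes were positive, their median size was 0.15 and the median standard error 0.13. A modelled log2 fold change of at least 1 in size was seen for 41 genes upward and 74 downward, of which 3 and 1 were protein-coding. Those 4 were HSPA6, FCER1G and ESF1 upward and LCN2 downward. The model adds 0.5 to the FPKM before the log, which understates changes of low genes. In mean FPKM other protein-coding genes also differed at least 2-fold, among them EMP1 and MMP3 upward and JAG1 and CLEC4E downward.

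**Figure D1:**
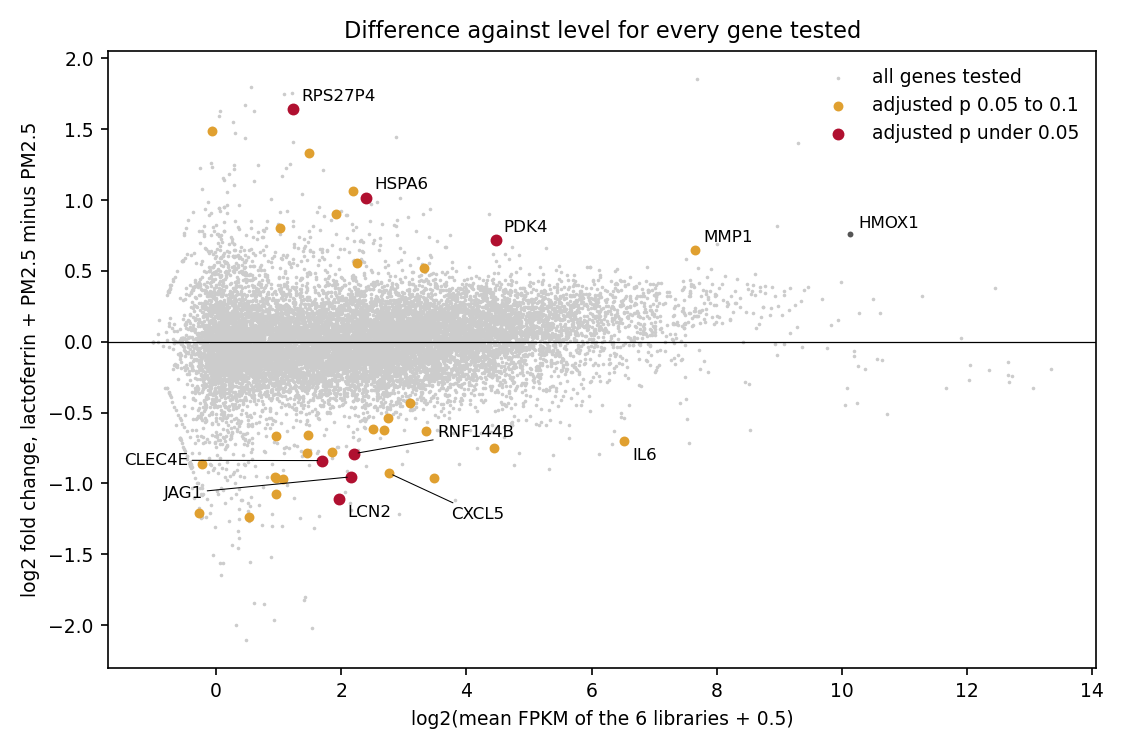
Log2 fold change (lactoferrin plus PM2.5 minus PM2.5, vertical axis) against log2 of the mean FPKM of the 6 libraries plus 0.5 (horizontal axis), 1 point per gene for 14454 genes. The 7 genes with an adjusted p under 0.05 are dark red, those between 0.05 and 0.1 orange, and most genes lie within 0.5 of 0.

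LCN2 (ENSG00000148346) lies on the plus strand of chromosome 9 of GRCh38, from 128149071 to 128153455, and stood at 2.25, 2.01 and 2.05 FPKM in control, 5.15, 5.03 and 4.41 FPKM in the PM2.5 libraries and 1.83, 1.90 and 2.19 FPKM in the lactoferrin libraries. Every lactoferrin library lay below every PM2.5 library and within or beside the control range. The group means were 4.86 ± 0.395 and 1.97 ± 0.191 FPKM (SD, n = 3 libraries per group), and the fall was -1.11 ± 0.10 on the log2 scale (SE, limma adjusted p = 0.00584). About 124.2 to 153.2 fragments per PM2.5 library and 52.1 to 55.1 per lactoferrin library lie behind these values. CLEC4E (ENSG00000166523, chromosome 12, 8533305 to 8540963, minus strand) encodes Mincle, a C-type lectin that senses microbial glycolipids and products of dead cells. It stood at 2.05, 1.92 and 2.08 FPKM in control, 3.37, 3.75 and 3.82 FPKM in the PM2.5 libraries and 1.69, 1.66 and 2.07 FPKM in the lactoferrin libraries. It fell by a log2 fold change of -0.84 ± 0.09 (adjusted p = 0.0184), again without overlap between the 2 exposed groups. Against control, lactoferrin plus PM2.5 gave a log2 fold change of -0.09 (adjusted p = 0.51) for LCN2 and -0.14 (adjusted p = 0.243) for CLEC4E, which does not show that the levels were equal.

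RNF144B (ENSG00000137393, chromosome 6, 18387350 to 18468874, plus strand), which encodes an E3 ubiquitin ligase and is also a p53 target, moved the same way in both steps. It stood at 11.6, 11.5 and 10.6 FPKM in control, 5.02, 5.68 and 5.36 FPKM in the PM2.5 libraries and 2.45, 2.94 and 3.23 FPKM in the lactoferrin libraries, a fall of -0.79 ± 0.09 against PM2.5 (adjusted p = 0.0184). JAG1 (ENSG00000101384, chromosome 20, 10637684 to 10673999, minus strand) encodes a ligand of Notch receptors. It stood at 10.3, 10.4 and 10.9 FPKM in control, 5.41, 5.25 and 5.55 FPKM in the PM2.5 libraries and 1.95, 2.86 and 2.86 FPKM in the lactoferrin libraries, a fall of -0.95 ± 0.11 (adjusted p = 0.0270). For both genes the 3 groups did not overlap, and the lactoferrin libraries were the lowest of the 9. The PM2.5 libraries enter both steps, so the 2 differences of a gene are not independent of each other.

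HSPA6 (ENSG00000173110, chromosome 1, 161524540 to 161526910, plus strand) encodes a strictly inducible member of the HSP70 chaperones. It stood at 0.250, 0.154 and 0.170 FPKM in control, 3.03, 2.84 and 3.13 FPKM in the PM2.5 libraries and 6.23, 6.48 and 6.91 FPKM in the lactoferrin libraries. It rose 2.18-fold in mean FPKM, a log2 fold change of 1.02 ± 0.09 (adjusted p = 0.00584), and all 3 groups were apart. A near-identical pseudogene can share its reads, so the division between them is uncertain. PDK4 (ENSG00000004799, chromosome 7, 95583499 to 95596491, minus strand) encodes a kinase that switches off pyruvate dehydrogenase and so spares glucose carbon when fatty acids are burnt. It stood at 5.49, 5.63 and 5.48 FPKM in control, 16.6, 16.7 and 15.6 FPKM in the PM2.5 libraries and 24.4, 27.1 and 29.2 FPKM in the lactoferrin libraries. The rise of 0.72 ± 0.08 (adjusted p = 0.0184) left no overlap between the exposed groups. The seventh gene was RPS27P4, a processed pseudogene of the ribosomal protein gene RPS27 (chromosome 3, 40761545 to 40761799, plus strand). It rested on 4, 2 and 3 fragments with PM2.5 and 15, 12 and 13 with lactoferrin plus PM2.5 (log2 fold change 1.64 ± 0.19, adjusted p = 0.0225), and reads of RPS27 itself (0.39 ± 0.18, adjusted p = 0.423) can be assigned to it.

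**Figure D2:**
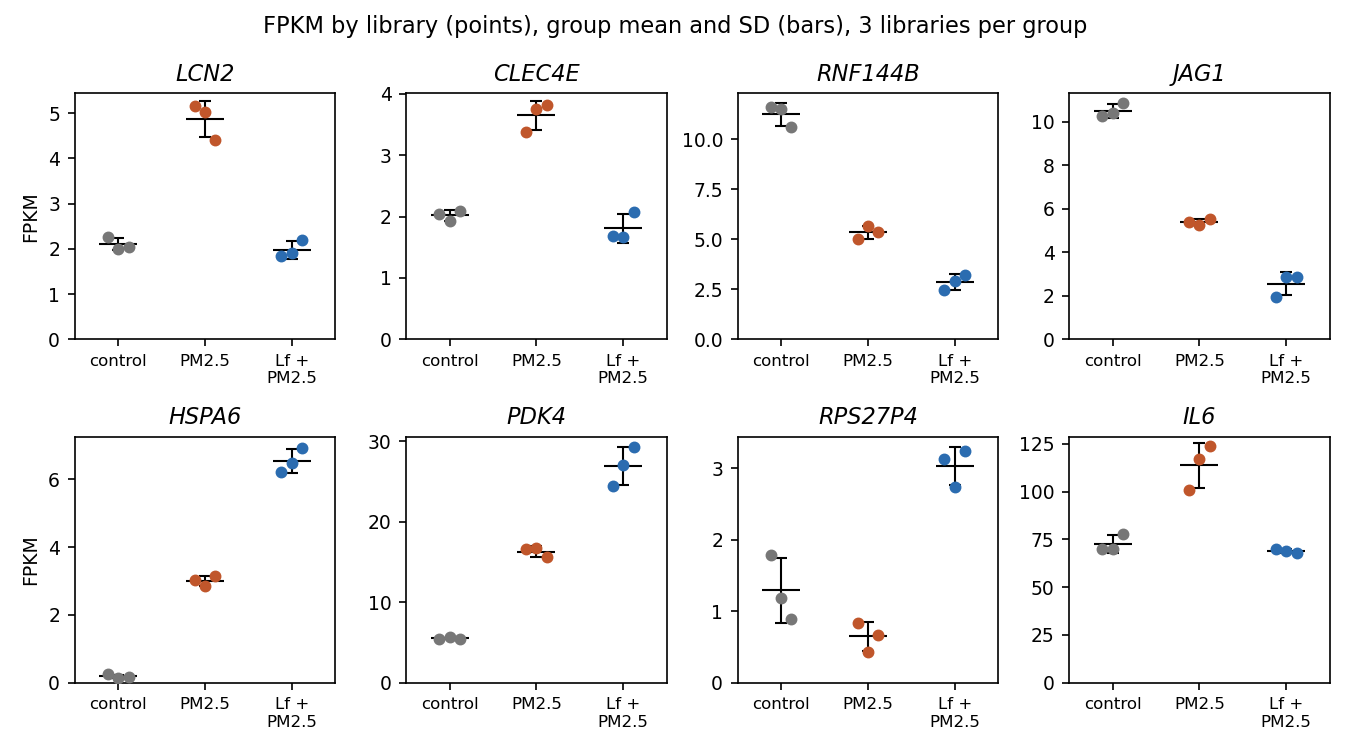
FPKM (vertical axes, from 0) of 8 genes in the control, PM2.5 and lactoferrin (Lf) plus PM2.5 groups, with 1 point per library and bars for the mean and SD of 3 libraries. LCN2, CLEC4E and IL6 with lactoferrin plus PM2.5 lie near control, RNF144B and JAG1 step down from group to group, and HSPA6 and PDK4 step up.

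The calls depended on single libraries. When any 1 of PM2.5 replicates 1 and 2 and lactoferrin replicate 2 was left out, 0 of 14454 genes passed (limma), with 1528, 1021 and 1446 genes in that order at an unadjusted p under 0.05. Without lactoferrin replicate 1, lactoferrin replicate 3 or PM2.5 replicate 3, 5, 4 and 2 of the 7 kept their call. The controls entered only through the shared spread and the scaling. Without control replicate 1, 2 or 3, in that order, 6, 3 and 7 of the 7 kept their call. The highest adjusted p of HSPA6 and of LCN2 with 1 library left out was 0.0782, and both kept their call in 6 of 9 fits with 1 library left out. CLEC4E and RNF144B kept it in 4 of 9, PDK4 in 3, and JAG1 and RPS27P4 in 2. From the 6 compared libraries alone 1 gene was higher (HSPA6) and 1 lower (the microRNA gene MIR219A1, named after its value was seen).

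Cytokine and acute-phase genes were lower as a group after lactoferrin. The members of this and the other lists were chosen with earlier results of these data known. Of 41 NF-kB targets listed 30 passed the filter, 24 had a negative and 6 a positive log2 fold change, and the median was -0.38, against 0.01 over all genes. LCN2 was the 1 gene that passed the test. The lactoferrin libraries lay below the PM2.5 libraries without overlap for 17 of the 30 (56.7%, against 11.7% of all genes) and above them for 1, IL11 (3.33%, against 8.86%). The median of the list relative to the PM2.5 mean was -0.45, -0.32 and -0.40 in lactoferrin replicates 1, 2 and 3, so the replicate that stood apart gave much the same value. It was -0.39 without that library and -0.40 with the length trend removed, and 18 of 30 then lay below without overlap when that library was left out (60%, against 14.3%). Against control 13 of the 30 were higher and 8 lower with PM2.5, where 19.9% and 15.7% of all genes were, and 6 were higher and 9 lower with lactoferrin plus PM2.5, where 21.3% and 17.4% were.

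Among the secreted signals, IL6, a cytokine of the acute-phase response, stood at 101, 117 and 124 FPKM in the PM2.5 libraries and 70.1, 68.9 and 67.7 FPKM in the lactoferrin libraries, against 69.8, 69.9 and 78.0 FPKM in control. The 2 exposed groups did not overlap, and the log2 fold change of -0.70 ± 0.10 missed the threshold (adjusted p = 0.0603). CXCL5, a neutrophil-attracting chemokine, stood at 7.83, 8.10 and 9.30 FPKM against 3.53, 3.95 and 5.06 FPKM (-0.93 ± 0.14, adjusted p = 0.0684), and control was at 3.89, 4.07 and 2.73 FPKM. CXCL8, interleukin 8, stood at 248, 216 and 242 FPKM against 169, 131 and 128 FPKM (-0.71 ± 0.17, adjusted p = 0.248). CXCL8 was at 175, 179 and 123 FPKM in control, and the lactoferrin ranges of IL6, CXCL5 and CXCL8 all overlapped those of control. CXCL2 took a middle position, at 40.6, 47.2 and 50.7 FPKM in the PM2.5 libraries, 31.2, 27.9 and 31.6 FPKM in the lactoferrin libraries and 18.3, 17.0 and 13.1 FPKM in control (-0.59 ± 0.12, adjusted p = 0.169). CSF2, which encodes GM-CSF, had the same order, at 16.5, 12.9 and 16.3 FPKM against 10.7, 9.98 and 9.84 FPKM, with 0.414, 0.690 and 0.728 FPKM in control (-0.54 ± 0.14, adjusted p = 0.284). SOD2, the mitochondrial superoxide dismutase, also had its lactoferrin level between the other groups, at 12.6, 13.1 and 9.44 FPKM in control, 21.3, 22.1 and 22.6 FPKM in the PM2.5 libraries and 16.0, 15.7 and 17.1 FPKM in the lactoferrin libraries (-0.41 ± 0.10, adjusted p = 0.263). TNF was near the floor of the filter, with means of 0.605 and 0.168 FPKM (-0.71 ± 0.23, adjusted p = 0.347).

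For SAA1, VCAM1 and C3 the PM2.5 level had not passed the test as higher than control. SAA1, serum amyloid A1, an acute-phase apolipoprotein, stood at 17.9, 12.9 and 12.5 FPKM in the PM2.5 libraries and 7.03, 7.30 and 6.71 FPKM in the lactoferrin libraries (-0.96 ± 0.16, adjusted p = 0.0910), against 16.6, 12.3 and 15.7 FPKM in control. SAA2 is nearly identical to it in sequence, so the split of reads between them is uncertain. VCAM1, an adhesion molecule for leukocytes, stood at 4.22, 4.44 and 4.84 FPKM in control, 2.74, 3.03 and 3.07 FPKM in the PM2.5 libraries and 1.19, 1.47 and 1.86 FPKM in the lactoferrin libraries (-0.78 ± 0.12, adjusted p = 0.0669). Complement C3 stood at 87.6 ± 1.15 and 50.9 ± 11.9 FPKM (-0.79 ± 0.15, adjusted p = 0.142), with lactoferrin replicate 1 lowest at 37.7 FPKM. Not every member was lower. IL11 stood at 15.9 ± 0.553 and 19.1 ± 0.486 FPKM (0.27 ± 0.10, adjusted p = 0.388), and CSF1, IL18, IL1A and CCL28 lay between -0.04 and 0.13 with overlapping groups.

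**Figure D3:**
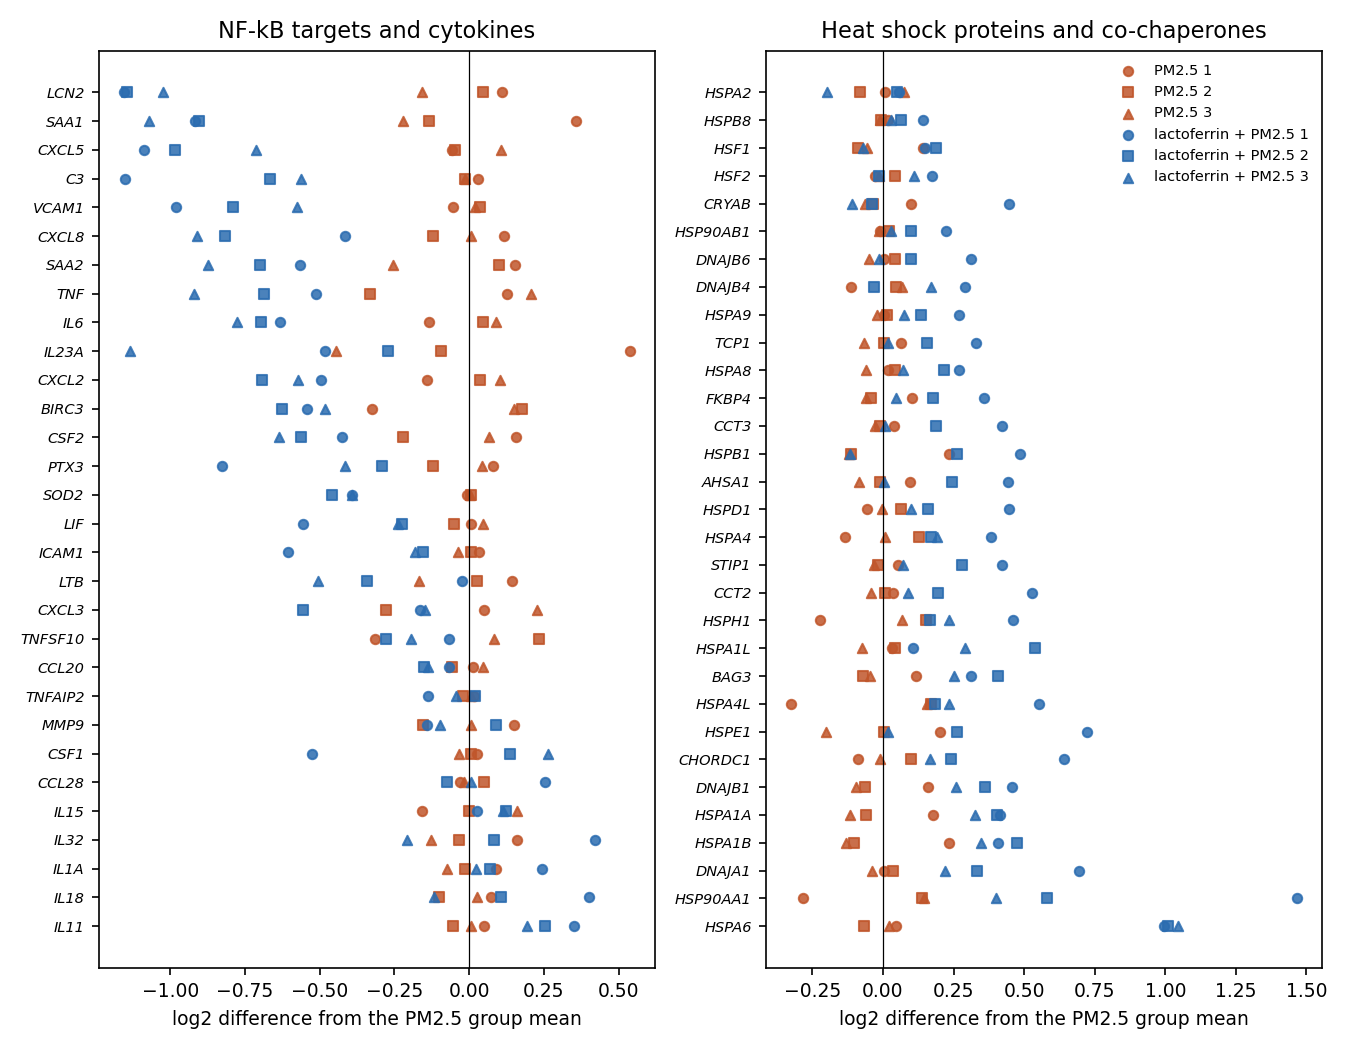
Log2 difference of each library from the mean of the 3 PM2.5 libraries (horizontal axes) for the tested NF-kB targets (left, 30 genes) and heat shock genes (right, 31 genes), red for PM2.5 and blue for lactoferrin plus PM2.5, with the marker shape giving the replicate. Blue points lie left of red for 17 of the 30 NF-kB targets and right of red for 19 of the 31 heat shock genes, and in the heat shock panel replicate 1 is most often the farthest.

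Of the 22 NF-kB targets with a promoter in the RefSeq table, 16 held either NF-kB type form (33% of all promoters did), among them the IL6, CXCL8, CXCL5 and LCN2 sequences shown above. Their median log2 fold change was -0.55, with 15 of 16 negative, and that of the 6 with neither form was -0.06, with 3 negative. This split was made after the values were seen, on a list of known NF-kB targets, and has no test. It leaves out the list genes without a promoter there. Of these SAA1, C3, SAA2, LIF, MMP9 and CSF1 had negative values, and IL15 and IL18 positive ones. What lay behind the difference between the 2 sets was not tested. Among the subunits and feedback inhibitors of NF-kB, 26 of 28 listed genes passed the filter and 21 had a negative log2 fold change. Without overlap 9 lay below (34.6%, against 11.7% of all genes) and 0 above (against 8.86%). The median was -0.13, also without lactoferrin replicate 1. RNF144B, which is also in the p53 list, was the 1 that passed the test. Whether it acts as a feedback inhibitor of NF-kB in these cells was not tested. ZC3H12A, a ribonuclease that degrades cytokine mRNAs, stood at 7.31, 6.53 and 8.08 FPKM in the PM2.5 libraries and 3.99, 4.64 and 4.96 FPKM in the lactoferrin libraries (-0.62 ± 0.09, adjusted p = 0.0690). NFKB2, the p100/p52 subunit, stood at 21.2, 20.7 and 22.9 against 16.6, 17.9 and 16.4 FPKM (-0.33 ± 0.08, adjusted p = 0.248). NFKB1 was at -0.30 ± 0.10, TNFAIP3 (A20) at -0.41 ± 0.15, TNIP1 at -0.41 ± 0.11 and NFKBIA at -0.17 ± 0.09, while RELA was at -0.04 ± 0.09.

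Of 34 pattern recognition receptor and adaptor genes 21 passed the filter, 14 with a negative log2 fold change. Without overlap 4 lay below (19%, against 11.7% of all genes) and 1 above (4.76%, against 8.86%). CLEC4E was the 1 gene that passed the test. TICAM1, the TRIF adaptor, was at 10.5 ± 1.26 and 8.18 ± 1.09 FPKM (-0.33 ± 0.10, adjusted p = 0.327). LY96, the MD-2 subunit that holds lipopolysaccharide for TLR4, was the 1 above, at 1.81 and 3.78 FPKM on average (0.89 ± 0.29, adjusted p = 0.340). FCER1G, the signalling chain that couples Mincle and Fc receptors, also had a positive value, at 2.45 ± 0.105 and 5.68 ± 1.18 FPKM with no overlap (1.06 ± 0.17, adjusted p = 0.0831), and control was at 0.203, 0.251 and 0.476 FPKM. So CLEC4E and the chain it signals through differed in sign, with CLEC4E called and FCER1G not.

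Heat shock genes lay the other way. Of 32 listed 31 passed the filter and 30 had a positive log2 fold change (HSPA2 was at -0.03), with a median of 0.23 and 1 gene that passed the test, HSPA6. The lactoferrin libraries lay above the PM2.5 libraries without overlap for 19 of 31 (61.3%, against 8.86% of all genes) and below for 0. Without lactoferrin replicate 1 the count was again 19 (against 12.1%) while the median went from 0.23 to 0.13, and the per-library medians were 0.41, 0.19 and 0.09. With the length trend removed the median was 0.22. HSPA1A and HSPA1B, the major stress-inducible HSP70 genes and near-identical copies, stood at 79.3, 69.0 and 68.1 FPKM against 92.3, 94.2 and 92.9 FPKM (0.38 ± 0.14, adjusted p = 0.371) and at 51.8, 42.0 and 42.2 FPKM against 57.6, 62.1 and 59.0 FPKM (0.41 ± 0.11, adjusted p = 0.284). BAG3, an HSP70 co-chaperone of selective autophagy, stood at 47.3, 42.5 and 44.4 FPKM against 53.4, 58.7 and 54.8 FPKM (0.32 ± 0.08, adjusted p = 0.278). DNAJB1, an HSP40, was at 49.8 ± 3.79 and 63.4 ± 2.23 FPKM (0.36 ± 0.10, adjusted p = 0.304). For these 4 the 3 lactoferrin replicates were close together. HSP90AA1 was not like them: it stood at 281, 387 and 399 FPKM in the PM2.5 libraries and 934, 520 and 477 FPKM in the lactoferrin libraries (0.82 ± 0.30, adjusted p = 0.384), so replicate 1 carried most of its value. HSF1 itself was at 0.09 ± 0.12.

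PDK4 belongs to the PPAR targets, genes of fatty acid use, of which 27 of 34 passed the filter. PDK4 was the 1 that passed the test, and 21 had a positive log2 fold change. Without overlap 6 lay above (22.2%, against 8.86% of all genes) and 2 below (7.41%, against 11.7%). The median was 0.12, or 0.04 without lactoferrin replicate 1. PLIN2, a coat protein of lipid droplets, stood at 97.1, 90.2 and 90.4 FPKM against 137, 119 and 113 FPKM (0.42 ± 0.11, adjusted p = 0.284). ANGPTL4, an inhibitor of lipoprotein lipase, stood at 41.2, 33.5 and 36.8 FPKM against 40.8, 53.4 and 53.4 FPKM (0.41 ± 0.12, adjusted p = 0.311), with replicate 1 nearest to the PM2.5 libraries, from which it was separate on scaled FPKM. CPT1A, which admits fatty acids to mitochondria, was at 0.17 ± 0.14, and PPARA at -0.36 with means of 4.11 and 3.13 FPKM (adjusted p = 0.388). The other regulators of pyruvate dehydrogenase did not share the rise of PDK4 in size. PDK1 was at -0.08 ± 0.09 and the phosphatase gene PDP1 at -0.06 ± 0.11, and the median of 17 genes was 0.12, or 0.02 without lactoferrin replicate 1. INSIG2, which retains the sterol sensor SCAP in the endoplasmic reticulum, stood at 7.55, 7.43 and 8.27 FPKM against 11.8, 10.7 and 11.2 FPKM (0.52 ± 0.09, adjusted p = 0.0910), while the 35 sterol and fatty acid synthesis genes had a median of -0.02.

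Of 36 Notch pathway genes 26 passed the filter, and JAG1 was the 1 that passed the test. Of the 26, 21 had a negative log2 fold change and 5 lay below without overlap (19.2%, against 11.7% of all genes). The median of -0.14 was -0.03 without lactoferrin replicate 1. NCSTN, nicastrin of the gamma-secretase that cuts Notch, stood at 29.3 ± 0.989 and 22.3 ± 4.08 FPKM (-0.40 ± 0.12, adjusted p = 0.322). The receptors NOTCH1 and NOTCH2 overlapped between groups at -0.30 ± 0.21 and -0.23 ± 0.23, with replicate 1 lowest in each (2.49 and 16.1 FPKM). HES1, a target of Notch signalling, was at 0.28 ± 0.15 and HEY1 at -0.03 ± 0.15, and the groups overlapped for both target genes. In the EGFR family and ligands, 12 of 14 tested genes had a negative value and 7 lay below without overlap (50%, against 11.7%). Of these genes 0 were called and 4 were lower at an unadjusted p under 0.05 (28.6%, against 6.89%). The median was -0.25, or -0.12 without lactoferrin replicate 1. EGFR stood at 17.9, 20.4 and 20.2 FPKM against 7.92, 14.3 and 16.6 FPKM (-0.62 ± 0.21, adjusted p = 0.357), and the ligand gene TGFA was at -0.30 with means of 16.0 and 12.8 FPKM (adjusted p = 0.337). The culture medium held EGF in all groups.

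Of 52 matrix, protease and adhesion genes listed 46 passed the filter, 37 with a negative and 9 with a positive log2 fold change. By limma 0 were called, with 4 higher (8.7%, against 5.33% of all genes) and 16 lower (34.8%, against 6.89%) at an unadjusted p under 0.05. Without overlap 18 lay below (39.1%, against 11.7%) and 6 above (13%, against 8.86%). The median was -0.21, or -0.10 without lactoferrin replicate 1 and -0.32 without lactoferrin replicate 3. The collagenase gene MMP1 stood at 7.36, 6.50 and 7.71 FPKM in control, 171, 151 and 151 FPKM in the PM2.5 libraries and 235, 240 and 258 FPKM in the lactoferrin libraries (0.64 ± 0.10, adjusted p = 0.0735). Its neighbour on chromosome 11, the stromelysin gene MMP3, was listed at 0 in the 3 controls and stood at 2.49, 2.19 and 1.78 FPKM and then 4.16, 4.59 and 4.42 FPKM (0.90 ± 0.12, adjusted p = 0.0600). Both thus had their highest levels after lactoferrin. MMP7, matrilysin, had the reverse order at 48.0, 40.8 and 36.0 FPKM in control, 26.4, 28.8 and 25.6 FPKM in the PM2.5 libraries and 17.9, 14.8 and 14.5 FPKM in the lactoferrin libraries (-0.75 ± 0.13, adjusted p = 0.0910). Among structural genes, the collagen IV gene COL4A1 stood at 48.0, 52.9 and 53.2 FPKM against 17.5, 33.7 and 41.2 FPKM (-0.80 ± 0.24, adjusted p = 0.312). Of 22 fibroblast and endothelial markers 3 reached 1 FPKM (LUM, DCN and COL1A1), DPT was at 0 and COL1A2 and COL3A1 stayed below 1 FPKM in all libraries. Their summed level was 67.3 to 68.9 FPKM in the PM2.5 libraries and 52.0 to 55.9 FPKM in the lactoferrin libraries, almost all of it LUM, and its part in the matrix values was not tested.

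The TGF-beta, BMP and ID list had 31 of 36 genes tested, 23 with a negative value. Without overlap 9 lay below (29%, against 11.7% of all genes) and 1 above (3.23%, against 8.86%). By limma 0 were called, with 1 higher (3.23%, against 5.33%) and 9 lower (29%, against 6.89%) at an unadjusted p under 0.05. The median was -0.14, or -0.07 without lactoferrin replicate 1 and -0.23 without lactoferrin replicate 3. Thrombospondin 1 (THBS1), which activates latent TGF-beta, stood at 2.64, 3.61 and 3.94 FPKM against 1.18, 2.07 and 2.11 FPKM (-0.77 ± 0.18, adjusted p = 0.249). The ligand gene TGFB2 was at -0.62 ± 0.19 (adjusted p = 0.312). ID2, an inhibitor of helix-loop-helix factors, was the 1 above, at 16.6 ± 0.652 and 23.0 ± 2.15 FPKM (0.47 ± 0.12, adjusted p = 0.274). Of the injured tubule markers, HAVCR1 (KIM-1), a receptor for dying cells, stood at 166, 183 and 229 FPKM in control, 83.9, 111 and 104 FPKM in the PM2.5 libraries and 53.9, 63.2 and 74.4 FPKM in the lactoferrin libraries (-0.63 ± 0.16, adjusted p = 0.278). Over the 21 injured tubule markers tested, LCN2 was the 1 called, 10 had a positive and 11 a negative value, and the median was -0.04. Without overlap 3 lay above (14.3%, against 8.86% of all genes) and 6 below (28.6%, against 11.7%).

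Of the NRF2 targets 34 of 38 passed the filter, 28 with a positive log2 fold change and 0 called. At an unadjusted p under 0.05 (limma) 7 were higher (20.6%, against 5.33% of all genes) and 2 lower (5.88%, against 6.89%). Without overlap 6 lay above (17.6%, against 8.86%) and 2 below (5.88%, against 11.7%). The median was 0.17, or 0.09 without lactoferrin replicate 1, with 0.29, 0.18 and 0.04 in the 3 replicates. HMOX1, heme oxygenase 1, stood at 55.6, 50.5 and 43.0 FPKM in control, 916, 770 and 810 FPKM in the PM2.5 libraries and 1502, 1423 and 1272 FPKM in the lactoferrin libraries (0.76 ± 0.13, adjusted p = 0.105). NQO1, a quinone reductase, stood at 183, 167 and 163 FPKM against 279, 240 and 213 FPKM (0.52 ± 0.15, adjusted p = 0.310). Values of other members were smaller or negative. GCLM, of glutathione synthesis, was at 0.08 ± 0.07 without overlap on scaled FPKM, TXNRD1 at 0.14 ± 0.11 and the cystine transporter gene SLC7A11 at -0.33 ± 0.18. Among 28 tested iron genes LCN2 was the 1 called and the median was -0.03. SLC25A37, mitoferrin 1, which carries iron into mitochondria, stood at 9.03, 9.22 and 9.84 FPKM against 6.58, 6.63 and 7.08 FPKM (-0.43 ± 0.07, adjusted p = 0.0690), and TFRC, FTH1 and FTL overlapped between groups (-0.19 ± 0.15, 0.38 ± 0.26 and 0.38 ± 0.24). Of 29 lactoferrin-binding surface molecules 18 passed the filter, 12 with a negative value and 0 called (5 lower at an unadjusted p under 0.05, 27.8% against 6.89%). Their median of -0.21 was 0.00 without lactoferrin replicate 1. The proteoglycan gene SDC2 stood at 27.1, 31.7 and 32.3 FPKM against 21.4, 24.0 and 25.5 FPKM (-0.34 ± 0.08, adjusted p = 0.251). In the lysosome the cathepsins differed in sign. CTSL stood at 219, 188 and 187 FPKM against 299, 321 and 330 FPKM (0.69 ± 0.12, adjusted p = 0.105) and CTSS at 5.20, 5.20 and 4.88 FPKM against 3.07, 2.36 and 3.64 FPKM (-0.67 ± 0.12, adjusted p = 0.123). The 49 autophagy and lysosome genes had 14 above without overlap (28.6%, against 8.86%), 5 below (10.2%, against 11.7%) and a median of 0.08.

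**Figure D4:**
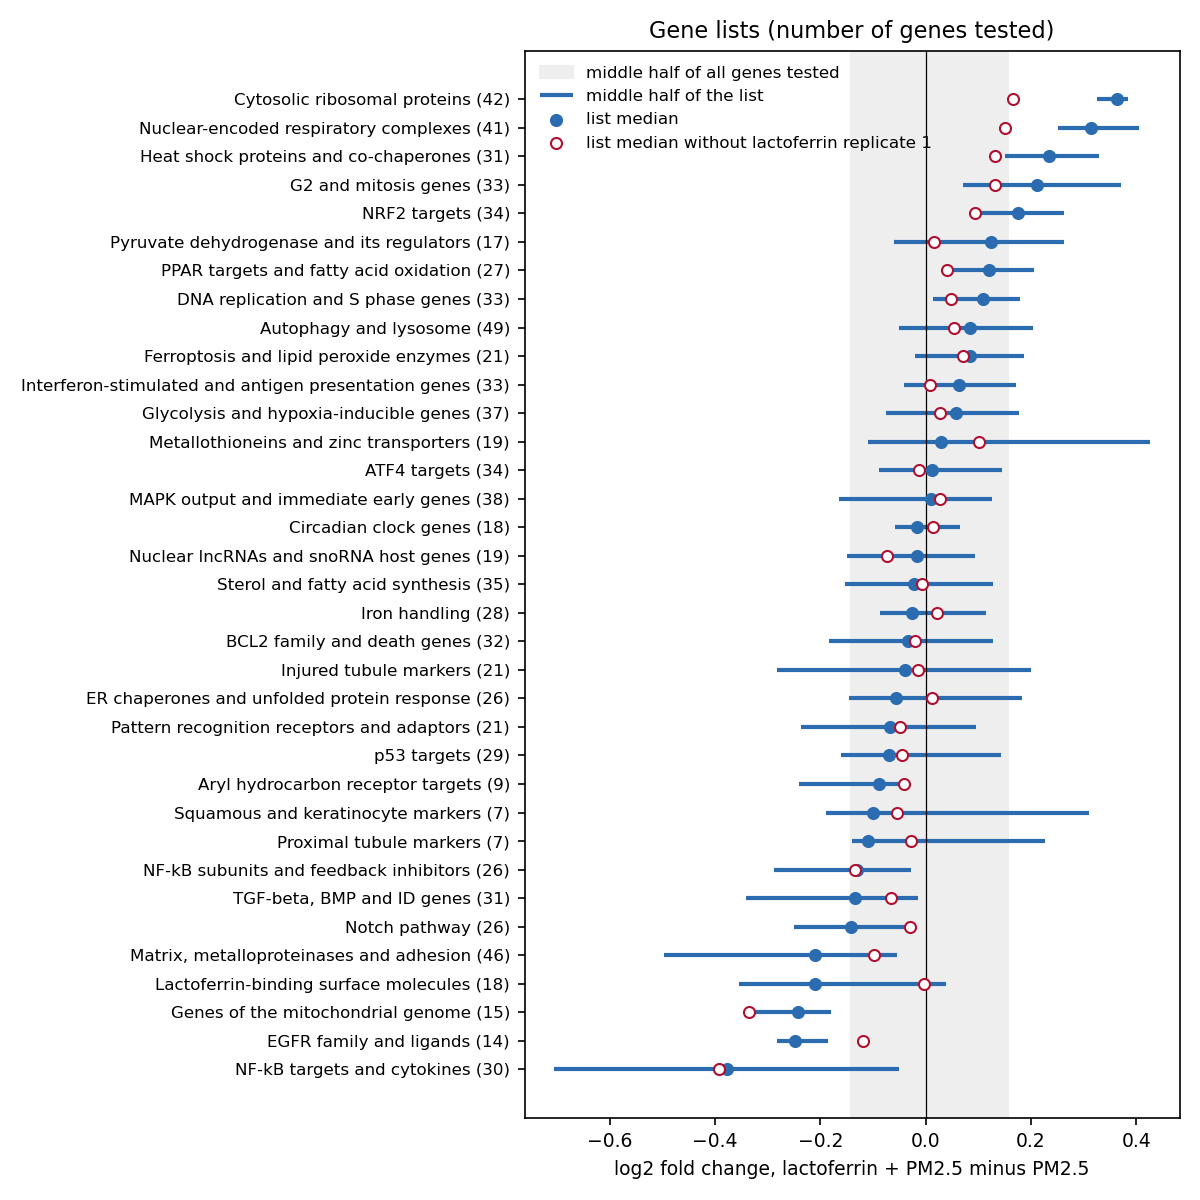
Median (filled point) and interquartile range (line) of the log2 fold change, lactoferrin plus PM2.5 minus PM2.5, for 35 gene lists with at least 5 genes tested, number tested in brackets, with the median without lactoferrin replicate 1 as an open point and the interquartile range of all genes as a grey band. The NF-kB target median is the lowest at -0.38 and stays at -0.39 without that library, while those of ribosomal and respiratory genes, the highest, go from 0.36 to 0.17 and from 0.32 to 0.15.

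Ribosomal and nuclear-encoded respiratory genes differed most in lactoferrin replicate 1. All 42 cytosolic ribosomal protein genes tested had a positive value with a median of 0.36, yet 2 lay above the PM2.5 libraries without overlap (4.76%, against 8.86% of all genes). Of them 0 were called (3 higher at an unadjusted p under 0.05, 7.14% against 5.33% of all genes). Their medians relative to the PM2.5 mean were 0.72, 0.34 and 0.02 in lactoferrin replicates 1, 2 and 3, 0.16, -0.06 and -0.11 in the PM2.5 replicates and 0.69, 0.39 and 0.15 in the control replicates. The 41 nuclear-encoded respiratory genes gave 0.66, 0.29 and 0.01, then 0.12, -0.04 and -0.07, and 0.49, 0.25 and 0.02 in control. Both lists thus fell from replicate 1 to replicate 3 in every group. All 41 respiratory genes were positive and 0 called (6 higher at an unadjusted p under 0.05, 14.6% against 5.33%), and 6 lay above without overlap (14.6%, against 8.86%). Without lactoferrin replicate 1 the 2 medians were 0.17 and 0.15, and without lactoferrin replicate 3 they were 0.53 and 0.48. The 15 genes of the mitochondrial genome, in contrast, had a median of -0.24 (-0.10 without PM2.5 replicate 1 and -0.38 without PM2.5 replicate 3), with 14 negative and 0 called by limma (0 at an unadjusted p under 0.05). Here lactoferrin replicate 1 differed least, with medians of -0.08, -0.24 and -0.41 in the 3 replicates. Without it the median was -0.34, and 8 of the 15 lay below without overlap (53.3%, against 14.3% of all genes). Of 33 genes of G2 and mitosis 31 had a positive value, 8 lay above without overlap (24.2%, against 8.86%) and 0 were called (6 higher at an unadjusted p under 0.05, 18.2% against 5.33%). The median was 0.21, or 0.13 without lactoferrin replicate 1 and 0.12 with the length trend removed. HMMR, a spindle protein, stood at 8.10 FPKM on average in control, 0.929, 1.20 and 0.867 FPKM in the PM2.5 libraries and 3.49, 1.93 and 1.81 FPKM in the lactoferrin libraries (0.92 ± 0.27, adjusted p = 0.306). Of 33 S phase genes 25 were positive and 0 called (5 higher at an unadjusted p under 0.05, 15.2% against 5.33%). The median of 0.11 was 0.048 without lactoferrin replicate 1, 0.18 without lactoferrin replicate 3 and 0.052 with the length trend removed.

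**Figure D5:**
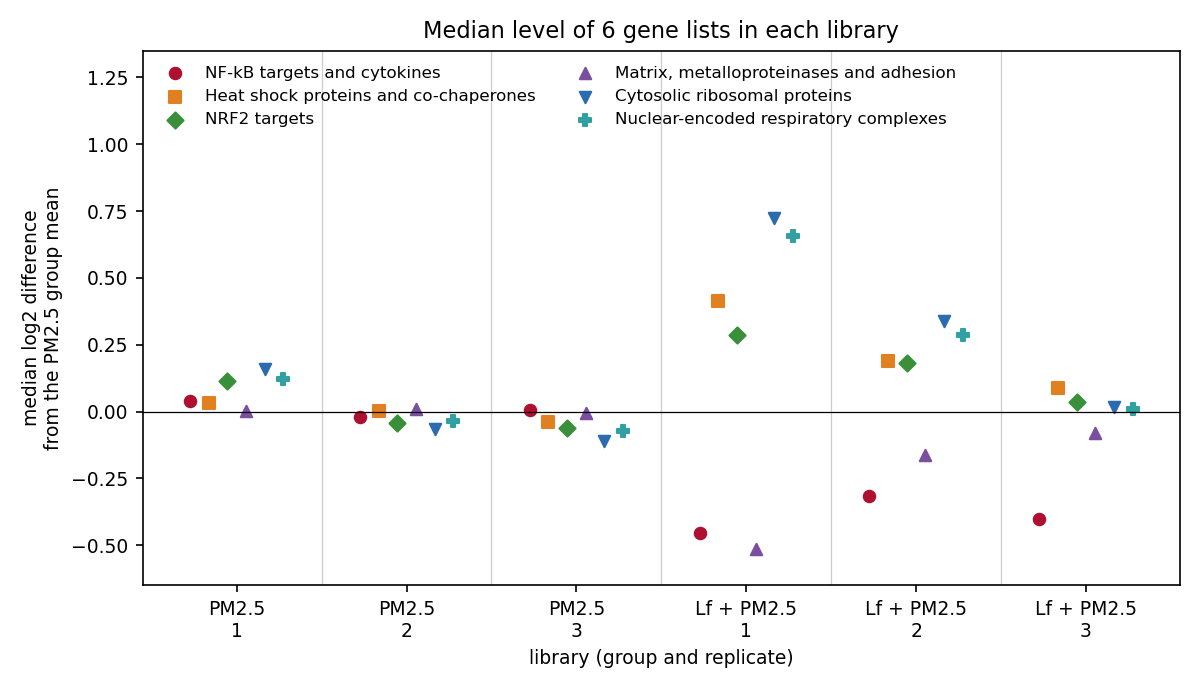
Median log2 difference from the PM2.5 group mean (vertical axis) of 6 gene lists in each of the 6 libraries (horizontal axis, Lf for lactoferrin). The NF-kB target median lies between -0.45 and -0.32 in all 3 lactoferrin libraries, whereas the ribosomal, respiratory, heat shock, NRF2 and matrix medians differ between these libraries, with replicate 1 farthest from 0 and replicate 3 nearest.

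Single genes outside these lists had some of the smallest p-values. SERPINA6, corticosteroid-binding globulin, stood at 2.12, 2.22 and 2.17 FPKM in control, 1.83, 2.17 and 2.12 FPKM in the PM2.5 libraries and 0.805, 1.04 and 0.585 FPKM in the lactoferrin libraries (-0.96 ± 0.13, adjusted p = 0.0603). NR3C2, the mineralocorticoid receptor gene, stood at 2.93, 2.91 and 2.84 FPKM against 1.41, 1.66 and 1.85 FPKM (-0.66 ± 0.09, adjusted p = 0.0603). These 2 genes of steroid handling were both lower in all 3 lactoferrin libraries than in any PM2.5 or control library. EMP1, an epithelial membrane protein, stood at 1.15, 0.861 and 0.942 FPKM against 2.04, 2.02 and 2.16 FPKM (0.80 ± 0.11, adjusted p = 0.0603). PDGFB, a platelet-derived growth factor chain, stood at 3.24, 4.50 and 4.47 FPKM against 1.78, 2.29 and 2.33 FPKM (-0.78 ± 0.12, adjusted p = 0.0690), and the kinase gene NUAK2 at 10.6, 12.4 and 12.9 FPKM against 6.50, 8.16 and 7.79 FPKM (-0.63 ± 0.09, adjusted p = 0.0669). Nearly all genes whose modelled log2 fold change was at least 1 in size were not protein-coding, many of them short RNAs and pseudogenes of few fragments. MIR590, for example, had 5, 9 and 7 fragments with PM2.5 and 3, 0 and 1 with lactoferrin plus PM2.5 (log2 fold change -2.02, adjusted p = 0.245). ESF1, of ribosome assembly, stood at 5.03, 4.28 and 3.69 FPKM against 16.5, 8.17 and 5.51 FPKM (1.01 ± 0.40, adjusted p = 0.395), with replicate 1 far above the others.

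Other gene groups had medians near 0 between the exposed groups and 0 members called by limma. These were the ATF4 targets (0.01, 34 genes tested), unfolded protein response genes (-0.06, 26 genes), MAPK output and immediate early genes (0.01, 38 genes), aryl hydrocarbon receptor targets (-0.09, 9 genes), BCL2 family and death genes (-0.03, 32 genes), circadian clock genes (-0.02, 18 genes), glycolysis and hypoxia-inducible genes (0.06, 37 genes), interferon-stimulated genes (0.06, 33 genes) and ferroptosis genes (0.08, 21 genes). A median near 0 does not mean that members did not differ. Of the MAPK genes 4 were higher (10.5%, against 5.33% of all genes) and 7 lower (18.4%, against 6.89%) at an unadjusted p under 0.05, and of the unfolded protein response genes 4 were higher (15.4%) and 0 lower. In the other 7 groups at most 3 members were higher and at most 4 lower at that p. The share higher ran from 0% (glycolysis and hypoxia) to 14.3% (ferroptosis). The share lower ran from 0% (ferroptosis and circadian clock) to 12.5% (BCL2 family). The highest of these shares lay above those of all genes, on few members. IFI16, a DNA sensor, stood at 17.7, 21.6 and 20.7 FPKM against 39.7, 28.2 and 28.5 FPKM (0.67 ± 0.20, adjusted p = 0.311). CCN1, a matricellular early gene, was at 451 and 291 FPKM on average (-0.63 ± 0.15, adjusted p = 0.248). In the p53 list, where RNF144B was the 1 called, CDKN1A (p21) stood at 89.6, 77.2 and 81.5 FPKM against 115, 116 and 107 FPKM (0.46 ± 0.13, adjusted p = 0.304), so a p53 target with a positive value stood beside one that fell.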

How the data were processed

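Total RNA libraries of HK-2 cells were analysed from FPKM that the authors deposited, 1 file per sample with 58884 Ensembl identifiers, the unit being read from the values: multiplied by union exon length in GENCODE v29 (58611 matched), 85.9% to 87.2% of low values (at most 200 fragments) were whole fragments within 0.05. The submitters' processing notes name HISAT2 2.1.0 and featureCounts 1.6.0 on GRCh38, Trimmomatic 0.38, DESeq2 1.22.1 and the tools CASAVA, FastQC and MultiQC. Which annotation release and strand setting were used is not given in the sources used here. Values of antisense pairs, overlapping genes and near-identical copies are therefore uncertain.

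FPKM were divided by a trimmed-mean factor (0.960 to 1.037), and log2(FPKM + 0.5) was modelled by its 3 group means over all 9 libraries using limma 3.58.1 under R 4.3.3, eBayes with trend and robust, Benjamini-Hochberg over 14454 genes and a threshold of 0.05. The 0.5 understates changes of low genes. Rebuilt fragments entered only the limma-voom alternative. Groups that do not overlap were counted on scaled FPKM. Named genes were the 7 called, the next 20 by p, the 10 largest changes each way (at least 2 FPKM, no overlap, unadjusted p under 0.05), the 3 smallest p of each of 38 lists, and preselected genes. Genes singled out beyond these were chosen after their values were seen. Members and lists were chosen with earlier results of these data known. The fit was also run on simulated data that gave every gene the same dispersion. Those data had no length trend and no library that stood apart, so they do not show how the fit performs here. The number of alternatives tried was 22. Figures used matplotlib 3.10.9, numpy 2.4.6 and pandas 2.3.3 in Python 3.11.15.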

Additional observations from a re-analysis of the deposited data

How the results depend on the processing

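As reported, 3 genes were higher and 4 lower. No scaling gave 4 and 5, and median-ratio factors, upper-quartile factors and a pseudocount of 0.1 each gave 3 and 4, in all of which the 7 genes were among the calls. A pseudocount of 1 gave 5 and 4, a filter of at least 2 FPKM 5 and 13, limma-voom on rebuilt fragments 5 and 11 (6 of the 7 shared), eBayes without trend and robust 6 and 8, and removal of the length trend, added after seeing the data, 6 and 8. With no filter on low values 4 and 4 were called, 4 of them shared. Only the 6 libraries compared gave 1 and 1. Leaving out 1 library gave 0 to 3 higher and 0 to 6 lower. Library weights gave 875 higher and 779 lower, with lactoferrin replicate 1 weighted 0.25 and lactoferrin replicate 2 3.43; the default weighting method did not converge and a gene-by-gene one was used.

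With the replicate block 5 genes were higher and 8 lower, the 7 among them, and 2649 genes had an unadjusted p under 0.05 (limma), against 1766 without it. Same-numbered PM2.5 and lactoferrin libraries deviated together with r of 0.09, -0.07 and 0.10 across genes. Same-numbered control and PM2.5 libraries had r of 0.18, -0.06 and 0.06, and control and lactoferrin libraries 0.12, 0.08 and 0.07. Between libraries of different number r ran from -0.18 to 0.14. These values do not settle whether the numbers mark pairs, and the main fit did not treat them as pairs. Of 3264 refitted values for 149 named genes 6 had the opposite sign: SCNN1A at 0.062 with library weights, CSF1R at -0.044 without PM2.5 replicate 2 (up to 0.21 over the libraries left out), and CD14 at 0.19 with library weights, 0.040 without PM2.5 replicate 3, 0.065 without lactoferrin replicate 1 and 0.0035 without lactoferrin replicate 3 (down to -0.28 without lactoferrin replicate 2). Their cause was not tested. With 3 libraries a group, depth limited RPS27P4, MIR590 and other genes of few fragments.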
